A study of Mus musculus with 6 samples.

Results

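Histone genes encode the proteins around which nuclear DNA is wrapped, and this account follows their promoters on 6 promoter microarrays. A promoter row belonged to the set when its symbol in the deposited tables began with Hist1h, Hist2h, Hist3h or Hist4h, or when the current RefSeq symbol of its accession was that of an H1, H2A, H2B, H3 or H4 gene. The rule found 66 promoter rows of 61 accessions among the 26200 rows that carried a value, which cover 22505 accessions. Of the 66 rows, 49 met both conditions, 14 met only the symbol in the tables and 3 met only the current symbol (H1f7, H1f8 and H1f10). By class the rows were 8 for H1, 17 for H2A, 16 for H2B, 11 for H3 and 14 for H4. By cluster, 50 rows lay in Hist1 on chromosome 13, 10 in Hist2 on chromosome 3, 2 in Hist3 and 1 in Hist4, and the 3 rows found by current symbol lay elsewhere.

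The study compared the promoters bound by Plakoglobin with those bound by β-catenin, a pair of closely related proteins of cell junctions that also enter the nucleus. All 6 samples were keratinocytes of C57BL/6J mice that had grown to confluence and then spent 4 days in high-calcium medium, which starts terminal differentiation. Chromatin cross-linked with 2 mM disuccinimidyl glutarate and 1% formaldehyde was sheared towards 500 bp and precipitated with an antibody to Plakoglobin (3 arrays) or to β-catenin (3 arrays). Each array had 2 colours, with the precipitated DNA in Cy5 and input DNA in Cy3, so every array carries its own background measurement and no array has an unspecific antibody. The labels do not say that arrays of an antibody came from separate cultures, so p-values here measure the spread between arrays, which may be technical. A promoter array measures no RNA, so the keratinocyte label could not be set against marker genes.

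Replication-dependent histone genes are transcribed during DNA replication, in S phase, and keratinocytes that differentiate leave the cell cycle. These genes are short, have no introns and lie in clusters, where many H2A and H2B genes stand head to head over a shared promoter. H2A, H2B, H3 and H4 form the nucleosome core, and H1 is the linker histone that binds DNA between cores. Known promoter elements include TATA and CCAAT boxes, an octamer (ATTTGCAT) that is typical of H2B genes, and, in H4 genes, a site for the factor Hinfp.

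Values below are log2 ratios of precipitated over input DNA, averaged by the authors over the probes of a promoter, with the median of each array set to 0. A log2 ratio above 1 is used as a fixed mark for a high row. On Plakoglobin array 1, 16 of the 66 histone rows (24.2%) were above 1, where 8.31% of all rows were. On Plakoglobin arrays 2 and 3 the counts were 8 (12.1% against 10.7% of all rows) and 6 (9.09% against 5.21%). On β-catenin arrays 1 and 2 no histone row was above 1, against 1.24% and 3.25% of all rows, and on array 3 there were 5 (7.58% against 5.95%). Over the 3 arrays of an antibody, 25 histone rows were above 1 on at least 1 Plakoglobin array (37.9% against 21.9%) and 5 on at least 1 β-catenin array (7.58% against 10.2%). The 5 rows above 1 on at least 2 Plakoglobin arrays (7.58% against 2.19%) were those of H4c12, H4c18 and the Hist1h2bc accession next to H4c18, the last 2 of which have 2 rows each. No histone row was above 1 on 2 β-catenin arrays (0% against 0.195%). The histone share stood farthest above that of all rows on Plakoglobin array 1. The median histone row stood at 0.13, -0.23 and -0.05 on the 3 Plakoglobin arrays and at 0.05, -0.29 and -0.03 on the 3 β-catenin arrays. The mean over 3 arrays was above 0 at 36 rows with Plakoglobin (54.5% against 56.6% of all rows) and at 29 with β-catenin (43.9% against 51.4%).

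H4 was the class with the highest median of row means over the 3 Plakoglobin arrays, although not on each array. The median H4 row stood at 0.34, -0.05 and 0.25 on Plakoglobin arrays 1 to 3 and at 0.04, -0.29 and 0.44 on β-catenin arrays 1 to 3. On Plakoglobin array 1 the H2A median was as high (0.34), and on array 2 the H1 median was higher (0.24). The highest single histone rows on arrays 2 and 3 were an H3 row (2.71) and an H2B row (3.11). The median of the H4 rows' means over the 3 Plakoglobin arrays was 0.66, where that of all promoters was 0.05. The same figure was 0.27 for H2A, 0.09 for H1, -0.04 for H2B and -0.07 for H3. H2A rows were high on 1 array: 8 of 17 were above 1 on Plakoglobin array 1, none was on arrays 2 and 3, and without array 1 the H2A median was -0.21. H4 had 5, 5 and 3 of 14 rows above 1 on the 3 Plakoglobin arrays, and without array 1 its median was 0.44. These rows repeat genes. H4c18 enters with 2 rows, both above 1 on Plakoglobin arrays 1 and 3, and H4c8 with 3 accessions, all above 1 on array 2 (1.22, 1.55 and 1.31). Over accessions with a single row the H4 median with Plakoglobin was 0.62, with the 3 accessions of H4c8 still counted apart. With β-catenin the class medians of means lay between -0.21 (H2A) and 0.05 (H4). When the median over a promoter's probes replaced their mean, the H4 median with Plakoglobin was 0.13.

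**Figure D1:**
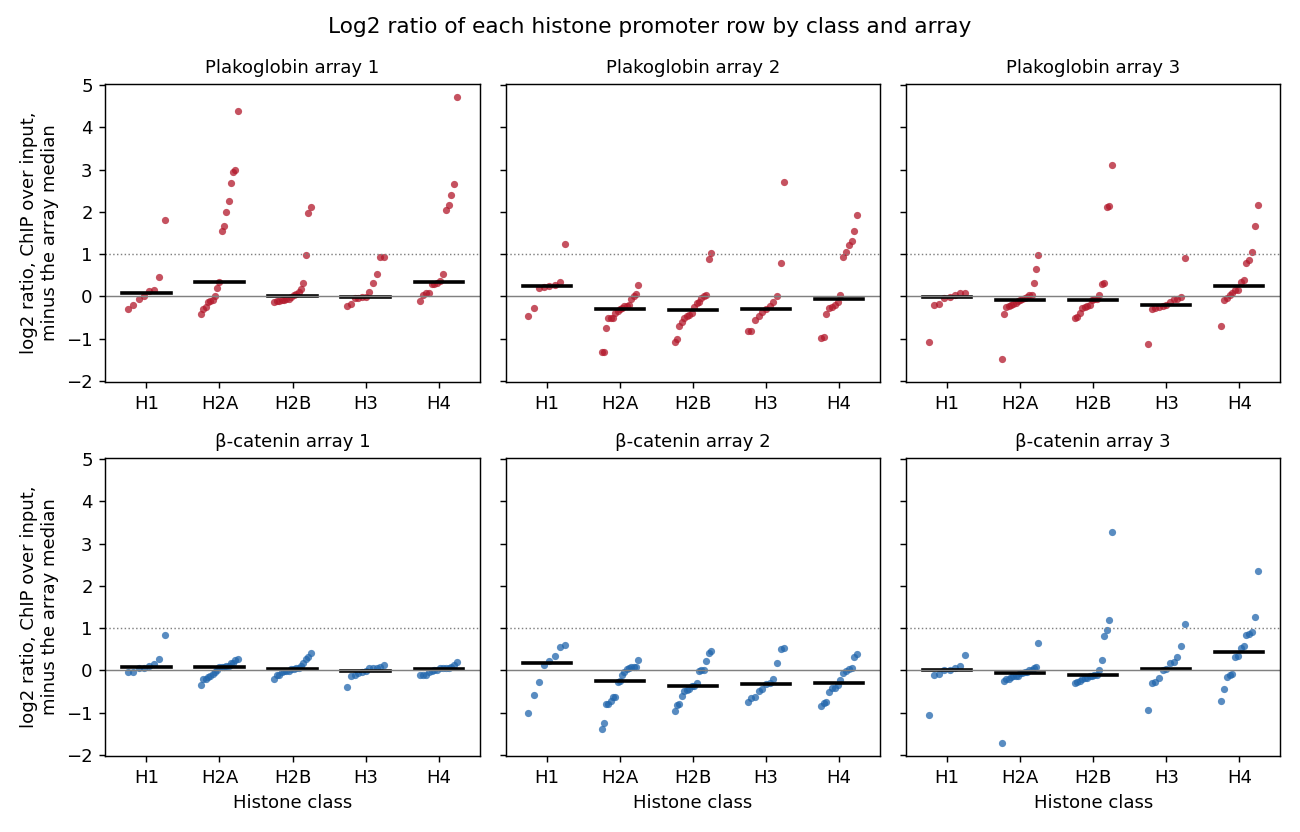
Each point is 1 of the 66 histone promoter rows, placed by class (x axis) and by log2 ratio of ChIP over input minus the array median (y axis), in a panel for each of the 6 arrays. Black bars are class medians, the solid line is the array median and the dotted line marks 1. On Plakoglobin array 1 the high points are mostly H2A and H4 rows, and on β-catenin array 1 no row reaches 1.

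Of the H4 genes, H4c12 was the one where peaks of all 3 Plakoglobin arrays shared bases. Its row stood at 2.17, 1.92 and 0.80 on the 3 Plakoglobin arrays and at 0.06, -0.06 and -0.08 on the 3 β-catenin arrays. All 3 Plakoglobin values lay above all 3 β-catenin values. The mean with Plakoglobin was 1.63 ± 0.73 (SD, n = 3) and that with β-catenin -0.03 ± 0.07 (SD, n = 3), a difference of 1.65 (SE 0.78). By limma with Benjamini-Hochberg adjustment over all 26200 rows this difference had an unadjusted p of 0.070 and an adjusted p of 1. The authors' peak lists hold a peak at this start site on each Plakoglobin array, from -930 to +109 bp on array 1, from -400 to -81 bp on array 2 and from -220 to +109 bp on array 3. Their peak scores were 2.53, 3.82 and 1.13, where the medians of the 3 lists were 2.56, 3.03 and 2.65. The 3 peaks share 140 bp from -220 to -81 bp, at chr13:21130710-21130849 in the deposited coordinates (genome build not given). In the whole lists 23 segments were shared by peaks of all 3 Plakoglobin arrays, and this was the 1 among them that belonged to a histone peak. No peak was listed at H4c12 on any β-catenin array.

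H4c8 (Hist1h4h in the tables) and Hist1h4i, whose current name by synonym is H4c9, also had Plakoglobin peaks within 1000 bp of the start site on all 3 arrays. Their peaks did not share bases across the 3 arrays. At H4c8 the peak ran from -42 to +173 bp on array 1 and from +61 to +173 bp on array 3, but from -789 to -323 bp on array 2. At Hist1h4i it ran from -70 to +109 bp on array 1, from -850 to -751 bp on array 2 and from -730 to -531 bp on array 3. The row of H4c8 stood at 0.35, 1.31 and 0.34 with Plakoglobin and at 0.07, 0.07 and 0.53 with β-catenin. The row of Hist1h4i stood at 0.09, 1.06 and 0.85 with Plakoglobin and at -0.02, -0.42 and 1.27 with β-catenin. In both genes Plakoglobin array 2 had the highest of the 3 Plakoglobin values. The value of β-catenin array 3 lay within the Plakoglobin range at H4c8 and above all 3 Plakoglobin values at Hist1h4i. β-catenin array 3 also had a peak at each, from -472 to -360 bp at H4c8 and from -857 to -751 bp at Hist1h4i, and each overlapped the peak of Plakoglobin array 2. With the median over probes the Plakoglobin means of these rows were -0.03 (H4c8) and 0.08 (Hist1h4i), against 0.67 and 0.67 with the mean over probes.

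The 250 bases upstream of the RefSeq start are printed for these 3 genes, because all had a near peak on every Plakoglobin array, and for H4c3 and H4c2, which encode the same protein and had no listed peak on any of the 6 arrays. Sequences are from RefSeq on GRCm38.p6, 5′ to 3′ on the gene's strand; the deposited coordinates are on another, unnamed build, and their start sites may differ by some bases from RefSeq's. Capitals mark TATAAA and CCAAT, searched on both strands.
H4c12, chr13:21750554-21750803, minus strand: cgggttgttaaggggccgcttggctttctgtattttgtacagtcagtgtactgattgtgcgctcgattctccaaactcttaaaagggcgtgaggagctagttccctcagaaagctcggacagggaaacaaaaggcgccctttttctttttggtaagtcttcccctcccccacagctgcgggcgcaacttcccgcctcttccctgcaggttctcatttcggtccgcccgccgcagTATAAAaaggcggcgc
H4c8, chr13:23530794-23531043, plus strand: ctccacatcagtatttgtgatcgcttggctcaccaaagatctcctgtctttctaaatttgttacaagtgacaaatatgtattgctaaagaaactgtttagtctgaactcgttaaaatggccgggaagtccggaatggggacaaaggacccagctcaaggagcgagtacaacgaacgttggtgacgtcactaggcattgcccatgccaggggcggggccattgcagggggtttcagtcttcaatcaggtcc
H4c9, chr13:22041363-22041612, minus strand: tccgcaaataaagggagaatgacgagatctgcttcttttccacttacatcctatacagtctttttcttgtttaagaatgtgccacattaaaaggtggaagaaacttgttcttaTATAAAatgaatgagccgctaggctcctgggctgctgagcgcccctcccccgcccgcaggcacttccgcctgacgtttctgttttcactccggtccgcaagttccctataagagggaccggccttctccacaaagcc
H4c3, chr13:23698459-23698708, minus strand: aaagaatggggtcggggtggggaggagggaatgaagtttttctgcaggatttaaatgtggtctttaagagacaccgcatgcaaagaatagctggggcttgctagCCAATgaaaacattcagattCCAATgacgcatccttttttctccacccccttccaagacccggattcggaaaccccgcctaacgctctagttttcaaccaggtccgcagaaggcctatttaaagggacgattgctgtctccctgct
H4c2, chr13:23756687-23756936, plus strand: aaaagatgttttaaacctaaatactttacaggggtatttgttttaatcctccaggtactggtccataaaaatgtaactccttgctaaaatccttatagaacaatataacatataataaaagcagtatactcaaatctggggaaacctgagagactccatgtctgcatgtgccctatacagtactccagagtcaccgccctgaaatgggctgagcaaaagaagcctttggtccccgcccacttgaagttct
TATAAA starts at -16 in H4c12 and at -137 in H4c9, CCAAT starts at -146 and -126 in H4c3, and H4c8 and H4c2 hold neither. None of the 5 holds the octamer or either of the TCF/LEF letters searched, CTTTGAT and CTTTGAA. TCF and LEF factors are the DNA-binding partners of β-catenin.

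H4c3 stood at 0.03, -0.21 and -0.09 with Plakoglobin and at 0.20, 0.40 and -0.15 with β-catenin. H4c2 stood at 0.32, -0.14 and -0.69 with Plakoglobin and at -0.10, 0.03 and -0.72 with β-catenin. Neither gene had a row above 1 on any array, and their antibody groups overlapped.

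Other H4 rows were high on 1 array. H4c14, in the Hist2 cluster, had the highest histone value on any array, 4.71 on Plakoglobin array 1, with 0.03 and -0.03 on arrays 2 and 3 and 0.02, -0.34 and -0.10 with β-catenin. The probes of its promoter spread by an SD of 1.13 on that array. H4c1 stood at 2.04, -0.42 and 0.09 with Plakoglobin. Both had a Plakoglobin peak within 1000 bp on array 1 only. H4c4 was high with β-catenin, at 0.12, 0.32 and 2.35 on its 3 arrays against 0.30, 0.92 and 0.03 with Plakoglobin. H4f16, the Hist4 gene, stood at -0.12, -0.24 and 1.05 with Plakoglobin and at 0.05, -0.51 and -0.43 with β-catenin. In each of these 4 genes 1 array of an antibody stood well above the other 2.

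**Figure D2:**
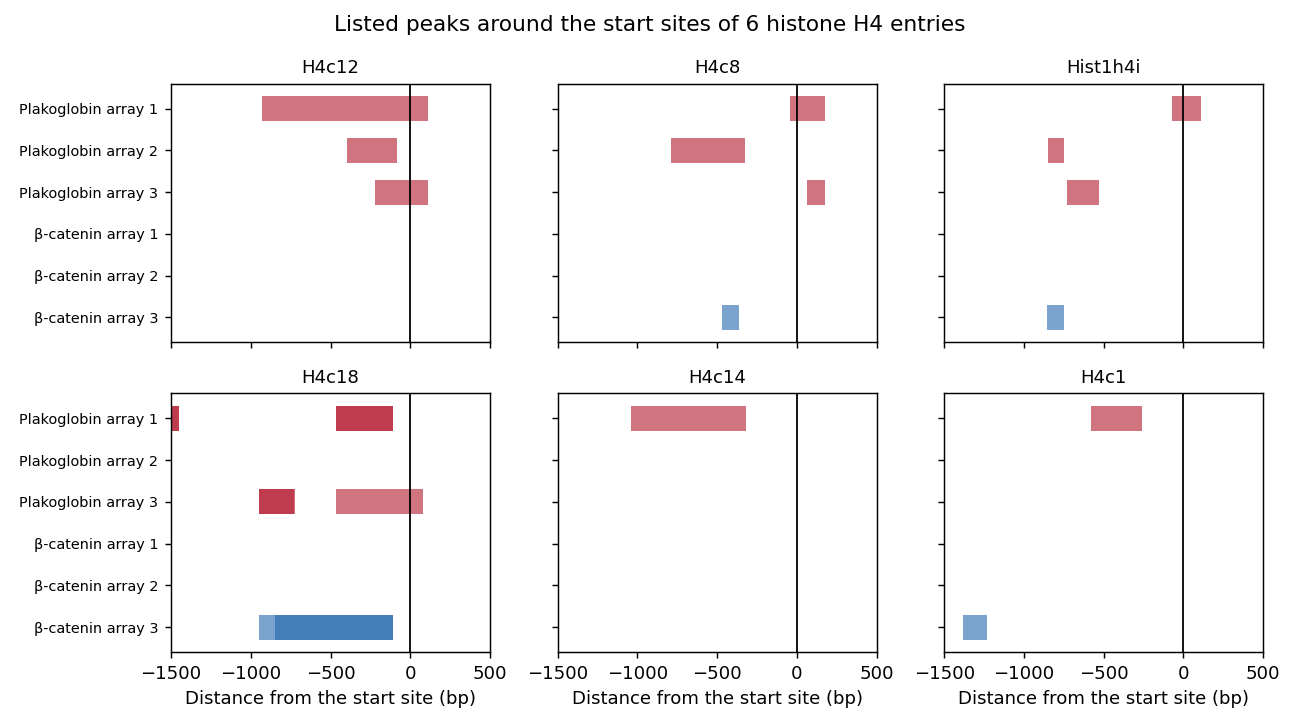
Bars span the peaks that the authors listed within the plotted window around the start site (x axis, distance in bp, start at 0, negative upstream) on each of the 6 arrays (y axis) for 6 H4 entries. The 3 bars of H4c12 overlap from -220 to -81 bp, those of H4c8 and Hist1h4i do not all overlap, and the bars of H4c18 are those of its 2 copies drawn over each other.

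Of the 8 H2A rows above 1 on Plakoglobin array 1, most belonged to head-to-head pairs with an H2B gene; the exceptions were 1 row each of Hist2h2aa1 and H2ac18. The set holds 7 pairs of an H2A and an H2B gene on opposite strands whose starts lie 269 to 334 bp apart. Start positions were taken from the peak lists, so a pair could be found only where both genes had a listed peak on some array. Peaks at these pairs thus follow in part from how the pairs were found. H2bc3 had no listed peak and could not be paired. H2bc3 and H2ac4, neighbours in row order, stood at -0.08 and -0.42 on Plakoglobin array 1, and whether they form a pair was not examined. On Plakoglobin array 1 the H2A row was above the H2B row in 7 of 7 pairs, with a median difference of 2.12. The differences ran from 0.01 (H2ac22) and 0.16 (H2ac7) to 3.39 (H2ac13), so 2 of the 7 pairs differed little. On Plakoglobin arrays 2 and 3 this held in 3 and 2 pairs, with medians of -0.06 and -0.08, and on the β-catenin arrays in 4, 3 and 4 pairs, with medians of 0.07, -0.34 and 0.10. H2ac13 stood at 4.38 on Plakoglobin array 1 and its partner H2bc13 at 0.99, and on the other 2 Plakoglobin arrays H2ac13 stood at 0.06 and 0.02. H2ac12 and H2bc12 stood at 2.26 and -0.05 on array 1, and H2ac15 and H2bc15 at 1.99 and -0.14. At 6 of the 7 pairs array 1 had a peak whose centre lay downstream of the H2B start, by +104 bp (H2bc1), +194 bp (H2bc7), +456 bp (H2bc12), +535 bp (H2bc15), +706 bp (H2bc13) and +759 or +785 bp (the 2 copies of a Hist1h2bc accession). The duplicated pair had further array 1 peaks, centred 49 or 50 bp upstream of the H2B start and about 1 kb downstream of the H2A start (1039 and 1040 bp). The positions downstream of the H2B start are 409 to 1055 bp upstream of the H2A start, on the H2B side of the shared promoter. The pair of H2ac22 and Hist1h2bp had no peak on array 1, and Hist1h2bp stood at 3.11 on Plakoglobin array 3 against -0.10 and 0.00 on arrays 1 and 2. A higher H2A row in all 7 of these pairs was thus seen on 1 array and was not tested, since the pairs of an array are not replicates.

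**Figure D3:**
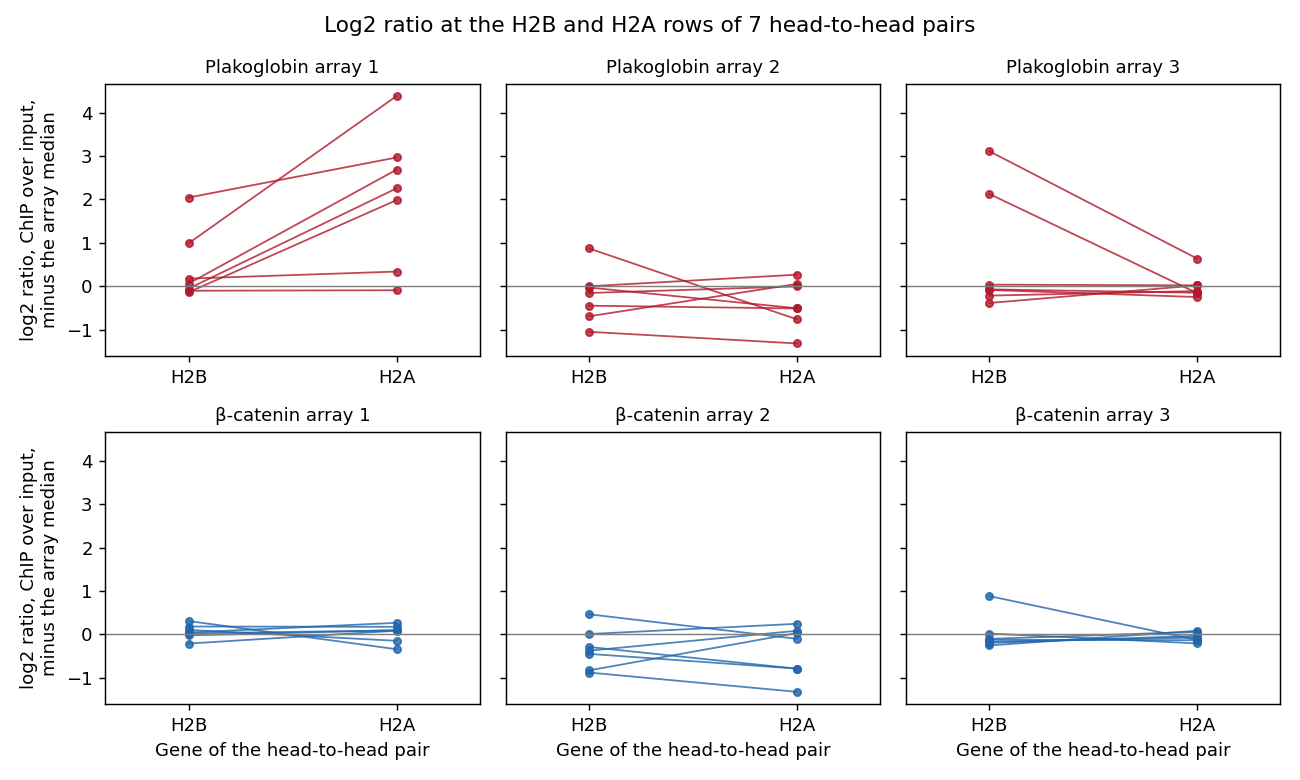
Each line joins the H2B row and the H2A row (x axis) of 1 of the 7 head-to-head pairs by their log2 ratio of ChIP over input minus the array median (y axis), in a panel for each array; a pair present in 2 copies is drawn by its mean. On Plakoglobin array 1 the H2A end is the higher in all 7 lines, by a median of 2.12, and 2 of the lines are nearly flat.

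The promoter of H2bc12 is printed because its array 1 peak, from +357 to +556 bp, is among the strongest at a histone gene and because it shows the elements of the shared H2A and H2B promoters. The peak itself lies outside the printed bases, which end at the start site. Capitals mark CCAAT or its reverse complement, TATAAA on the reverse strand, and the octamer with one further base (ATTTGCATA, from -30).
H2bc12, chr13:22035571-22035820, plus strand: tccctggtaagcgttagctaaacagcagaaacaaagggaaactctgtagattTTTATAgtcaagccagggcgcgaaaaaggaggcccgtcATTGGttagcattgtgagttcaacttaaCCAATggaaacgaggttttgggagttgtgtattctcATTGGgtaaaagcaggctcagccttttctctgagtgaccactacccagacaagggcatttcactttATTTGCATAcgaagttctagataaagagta
H2bc12 itself stood at -0.05, 0.88 and -0.21 with Plakoglobin and at 0.11, -0.45 and -0.19 with β-catenin, so its own row was below 1 on all 6 arrays.

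Peaks were listed at many more H2B rows than there were high H2B rows. H2bc15 had peaks on 3 Plakoglobin arrays and values of -0.14, -0.15 and -0.07, and of its peaks only that of array 1 lay within 1000 bp. H2bc11 had peaks on 3 arrays and none within 1000 bp, and stood at -0.12, 1.03 and 0.30 with Plakoglobin and at -0.11, -0.60 and 1.20 with β-catenin. H2bc6 was the H2B gene with the highest β-catenin value, 3.28 on array 3, against 0.42 and -0.46 on arrays 1 and 2 and -0.09, -0.46 and -0.23 with Plakoglobin. Its Plakoglobin minus β-catenin difference was -1.34 (SE 0.89), with an unadjusted limma p of 0.174 and an adjusted p of 1. The probes of H2bc6 spread by an SD of 2.41 on that array, where the peak ran from -540 to +199 bp. The lowest rows with Plakoglobin in this class included H2bu2 (0.10, -0.61 and -0.51), and with β-catenin H2bc13 (-0.21, -0.83 and -0.25). H2bc3 stood at -0.08, -0.14 and -0.27 with Plakoglobin and at -0.10, 0.41 and -0.14 with β-catenin.

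Linker histone genes lay near the array medians. Of the 8 H1 rows, 1 was above 1 on Plakoglobin array 1 (H1f2, 1.80, with 0.34 and 0.07 on the other arrays) and 1 on array 2 (H1f4, 1.24). H1f4 stood at 0.45, 1.24 and -1.07 with Plakoglobin and at 0.84, 0.21 and -1.04 with β-catenin. Its 0.84 was the highest histone value on β-catenin array 1, where the authors listed a peak from -80 to +195 bp. H1f1 was below 0 on all 3 Plakoglobin arrays (-0.30, -0.46 and -0.20) and stood at 0.06, -0.59 and 0.35 with β-catenin. H1f10, H1f7 and H1f8, which lie outside the clusters, had no listed peak and values between -0.27 and 0.61 on all arrays. H1f6 is known as the testis-specific linker histone and also had no listed peak.

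One of the 11 H3 rows was above 1 on a Plakoglobin array. This was H3c11, at 2.71 on Plakoglobin array 2, with -0.19 and -0.20 on arrays 1 and 3 and 0.06, -0.75 and -0.17 with β-catenin. H3c14 was the highest H3 gene over the 6 arrays, at 0.54, 0.78 and -0.05 with Plakoglobin and at 0.07, 0.54 and 0.17 with β-catenin. An accession listed as Hist2h3c1 was above 1 with β-catenin on array 3 (1.11) and stood at 0.92 with Plakoglobin on array 3. H3c3 was the H3 gene whose antibody groups did not overlap, at -0.04, -0.12 and -0.05 with Plakoglobin and at 0.14, 0.51 and 0.04 with β-catenin, a difference of -0.30 (SE 0.20) with an unadjusted limma p of 0.183 and an adjusted p of 1. H3c10 (-0.01, -0.81 and -0.29) was among the lowest Plakoglobin rows, and H3c7 (-0.10, -0.49 and -0.93) among the lowest β-catenin rows. H3c8 had peaks on 3 Plakoglobin arrays, none within 1000 bp, and stood at 0.12, -0.81 and -0.02.

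By cluster, the median of means with Plakoglobin was 0.12 in Hist1, 0.10 in Hist2 and 0.12 for the 3 genes elsewhere, and with β-catenin it was -0.02, -0.002 and 0.05. The 2 Hist3 rows and the 1 Hist4 row had Plakoglobin medians of -0.19 and 0.23 and β-catenin medians of -0.14 and -0.29. Within Hist1, the order of rows in the tables falls into a run of 20 and a run of 30 rows, split where more than 20 other rows lie between; this split was made after the values were seen. The run of 20, which holds H4c12, Hist1h4i and H2ac13, had a median of 1.49 on Plakoglobin array 1, and the run of 30, which holds H4c8 and the H1 genes of the cluster, one of 0.10. The 20 rows are of 17 accessions, as H4c18, Hist1h2bc and Hist1h2ad enter with 2 rows each, at 1.98 to 2.98 on Plakoglobin array 1. With each accession counted once, the middle value of this run on Plakoglobin array 1 was that of Hist1h4i, 0.09. The gap between the medians of the runs on this array therefore rests on these copies. On Plakoglobin arrays 2 and 3 the medians were -0.34 and -0.02 for the run of 20 and -0.22 and -0.09 for the run of 30. On the 3 β-catenin arrays they were 0.05, -0.67 and -0.08 for the run of 20 and 0.05, -0.01 and 0.02 for the run of 30.

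There were 5 accessions with 2 rows each, and these gave a view of how far rows of 1 accession went together. How alike the DNA of the copies is was not measured. Where copies are identical, probes cannot tell which copy was precipitated. For H4c18 the 2 rows stood at 2.39 and 2.65, -0.95 and -0.97, and 1.67 and 2.16 on the 3 Plakoglobin arrays. With β-catenin they stood at -0.11 and -0.04, -0.75 and -0.76, and 0.84 and 0.91. The copies were within 0.50 of each other while the arrays of 1 antibody lay more than 3 apart. The copies were as close for the Hist1h2bc accession beside it (1.98 and 2.11, -1.01 and -1.07, 2.12 and 2.13 with Plakoglobin) and for an H2A accession listed as Hist1h2ad (2.98 and 2.95, -1.30 and -1.32, -0.23 and -0.08), and these copies differed by at most 0.17 and 0.15 on any array. The symbols of both are uncertain: the tables call them Hist1h2bc and Hist1h2ad, while other accessions carry these symbols elsewhere in the cluster and the peak lists give the H2A accession a different name. The copies of Hist2h2aa1 did not go together: its rows stood at -0.29 and 1.56 on Plakoglobin array 1, and those of H2ac18, the current name of the same gene, at -0.25 and 1.66. One Hist2h2aa1 row had all its Plakoglobin values above all its β-catenin values and the other had them all below.

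Histone start sites share peaks, so start sites that had a peak in common were joined. The 61 accessions fell into 36 regions, of which 16 joined more than 1 accession and held 41 accessions. Plakoglobin peaks on at least 1 array were listed at 17 regions (47.2%), on at least 2 arrays at 8 (22.2%) and on all 3 at 3 (8.33%). Of the 21001 regions that all accessions form when joined the same way, 26.7%, 3.6% and 0.338% had such peaks. These shares are not like for like, since 61 histone accessions form 36 regions while 22505 accessions form 21001. A region that joins more start sites can collect peaks of more arrays by construction. Its peaks may lie at different genes, as with H4c14 on array 1 (680 bp upstream) and Hist2h3c1 on array 3 (1164 and 584 bp upstream). The 3 regions were that of H4c12 with H2ac15 and H2bc15, that of Hist1h4i with H2bc11, and that of H4c8 with H2ac10 and H3c8, so each holds an H4 gene. The 8 regions became 4 without Plakoglobin array 1, 5 without array 2 and 5 without array 3, with no share of all regions given. The 5 regions with peaks on 2 Plakoglobin arrays held H4c14 with Hist2h3c1, the duplicated H4c18 block, H2ac12 with H2bc12, H2ac8 with H2bc7 and H2ac7, and H3c11 with H2ac22 and Hist1h2bp. H2ac8 was the lowest histone row over both antibodies (0.00, -0.50 and -1.48 with Plakoglobin, -0.13, 0.09 and -1.71 with β-catenin), and it had no peak within 1000 bp. With β-catenin 10 regions (27.8% against 11.3% of all regions) had a peak on at least 1 array and 1 region (2.78% against 0.486%), that of H2bc6 and H1f4, on 2 arrays. Its peak on array 1 lay at H1f4 and that on array 3 at H2bc6. At 7 regions (19.4% against 4.07%) both antibodies had a peak on some array. No region had β-catenin peaks on all 3 arrays (0% against 0.00952%).

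Counted by row, 38, 17 and 22 of the 66 histone rows had a listed peak on Plakoglobin arrays 1 to 3 (57.6%, 25.8% and 33.3%), where 11.9%, 12.4% and 7.79% of all rows did. With β-catenin 2, 0 and 25 rows had one (3.03%, 0% and 37.9%), where 2.25%, 2.07% and 8.77% of all rows did. These shares count a peak once for every start site that lists it, up to 5553 bp away. Within 1000 bp of the start site the Plakoglobin arrays had a peak at 31, 8 and 13 rows (47%, 12.1% and 19.7%, against 9.98%, 10.2% and 5.87%) and the β-catenin arrays at 1, 0 and 14 (1.52%, 0% and 21.2%, against 1.95%, 1.94% and 6.76%). Counted as distinct peaks per 100 accessions, the histone genes had 31.1, 11.5 and 18.03 on the Plakoglobin arrays, against 11.2, 11.9 and 7.71 for all accessions. On the β-catenin arrays they had 1.64, 0 and 19.7, against 1.93, 1.45 and 8.67. Peaks at the 2 copies of the H4c18 block are counted apart here, while each of its accessions is counted once. This raises the histone figures on Plakoglobin arrays 1 and 3 and on β-catenin array 3. On Plakoglobin array 2 the excess of histone rows with a peak was therefore not there in distinct peaks, and on Plakoglobin arrays 1 and 3 and β-catenin array 3 it was between 2 and 3 times the level of all accessions. No interval is given, since neighbouring start sites share probes and peaks.

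**Figure D4:**
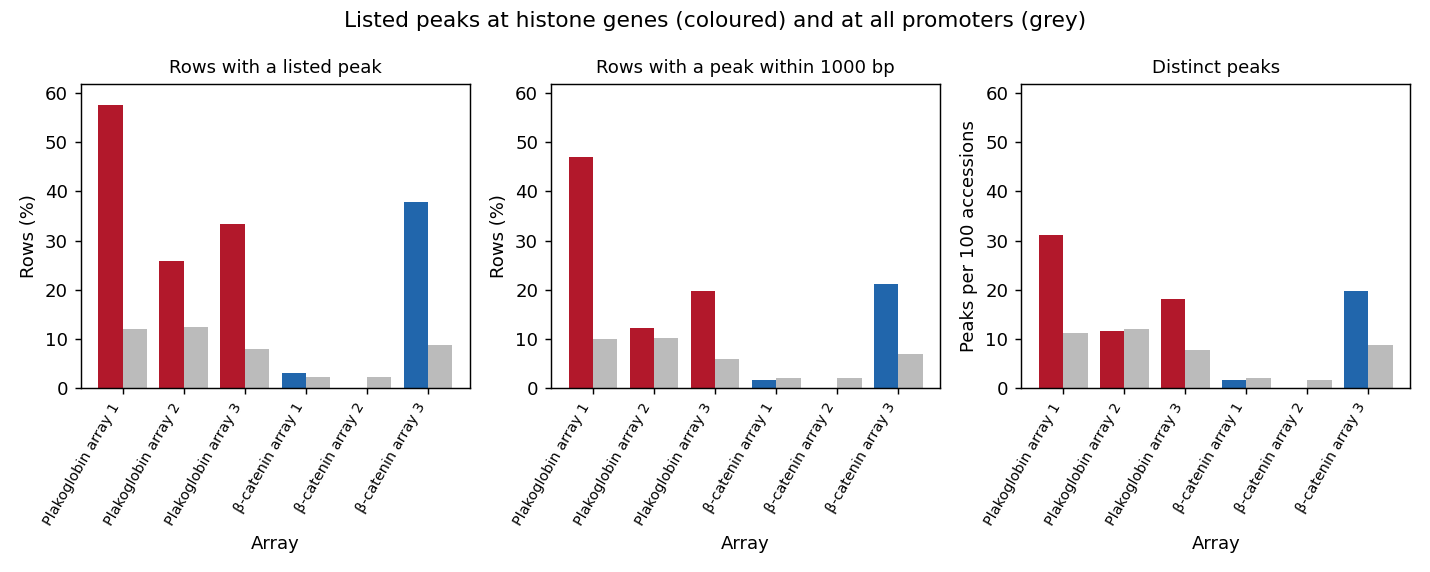
Bars give, for each array (x axis), the share of rows with a listed peak (left, %), the share with one within 1000 bp (middle, %) and the number of distinct peaks per 100 accessions (right) for histone genes (coloured) and for all promoters (grey). On Plakoglobin array 2 the coloured bar stands at 25.8% on the left and at 11.5 peaks on the right, next to 12.4% and 11.9 in grey.

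At least 2 Plakoglobin arrays listed a peak at 23 of the 66 rows (34.8%, against 4.32% of all rows), or 20 of the 61 accessions. With only 2 arrays in the count this fell to 11 accessions without array 1, 14 without array 2 and 13 without array 3. Within 1000 bp of the start site there were 12 rows (18.2% against 2.96%), or 9 accessions, of which 6 were H4, 2 were H2A and 1 was H2B. All 3 Plakoglobin arrays listed a peak within 1000 bp at 5 rows (7.58% against 0.466%), and all 5 were H4 accessions, namely H4c12, Hist1h4i and the 3 accessions of H4c8. When the 330 highest-ranked peaks of each array were taken in place of the full lists, no histone accession had a Plakoglobin peak on 2 arrays. No share of all accessions is given for these shorter lists or for the counts with an array left out. Whether histone genes and all genes fell alike therefore cannot be read from them. With β-catenin at least 2 arrays listed a peak at 2 rows (3.03% against 0.706%) and at none within 1000 bp (0% against 0.519%). No histone row had β-catenin peaks on all 3 arrays, where 0.0229% of all rows did, or 0.00382% within 1000 bp.

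No histone row passed a test across arrays. Over 26200 rows, limma with Benjamini-Hochberg adjustment called 0 rows for Plakoglobin over the array median, 0 for β-catenin over the array median and 0 for Plakoglobin minus β-catenin (background 0% in each). The lowest adjusted p among histone rows was 0.696 for Plakoglobin, 0.894 for β-catenin and 1 for the difference. At an unadjusted limma p under 0.05, Plakoglobin was higher at 2 rows (3.03% against 1.64% of all rows), both H4. They were H4c12, with an unadjusted p of 0.020 and an adjusted p of 0.696 by limma, and a Hist1h4h accession of the H4c8 gene, with an unadjusted p of 0.029 and an adjusted p of 0.696 and values of 0.54, 1.22 and 0.40. By limma, Plakoglobin was lower at 1 row (1.52% against 2.14%), a row of Hist2h2aa1, and β-catenin was lower at 1 row (1.52% against 1.5%), H2ac10, at -0.20, -0.64 and -0.25. For the difference between antibodies no histone row had an unadjusted p under 0.05, where 0.569% and 0.16% of all rows had one in the 2 directions. All 3 Plakoglobin values lay above all 3 β-catenin values at 3 rows (4.55% against 2.57%) and below them at 3 rows (4.55% against 2.57%). These shares are near those of all rows, and with 3 arrays for each antibody the precision is limited by their number.

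At these promoters the arrays numbered 2 and those numbered 3 went together across antibodies, and those numbered 1 did not. Over the 66 rows, Spearman's rho between Plakoglobin and β-catenin was 0.63 for the arrays numbered 3 and 0.50 for those numbered 2, against -0.01 for those numbered 1. Between arrays of the same antibody it lay between -0.13 and 0.11 for Plakoglobin and between -0.06 and 0.25 for β-catenin. Over all promoters the same-number values were 0.35, 0.38 and 0.41 for arrays 1, 2 and 3, and the highest of the other pairs of arrays were 0.29 (Plakoglobin arrays 1 and 3) and 0.27 (Plakoglobin array 1 and β-catenin array 3). These are descriptions across promoters, which share probes, copies and any array effect and are not independent. At the H4c18 copies both antibodies were below -0.7 on the arrays numbered 2 and above 0.8 on those numbered 3. On the arrays numbered 1 the antibodies parted, at 2.39 and 2.65 with Plakoglobin against -0.11 and -0.04 with β-catenin.

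A RefSeq promoter was found for 49 of the 52 current symbols in the set, with 50 windows of 250 bases in all, and shares are given against the 32851 windows of all genes. CCAAT, on either strand, was in 80% of histone windows against 33.8% of all, in 12 of 12 H2A and 13 of 13 H2B windows, in 6 of 8 windows each of H1 and H3 and in 3 of 9 H4 windows. TATAAA was in 44% against 12.4%, with shares between 37.5% (H1 and H3) and 50% (H2A) in the 5 classes. The octamer ATTTGCAT was in 12 windows (24% against 1.60%), 6 of H2A and 6 of H2B, and the longer ATTTGCATA, which contains it, in 10 (20% against 0.591%). Windows of head-to-head genes can overlap, and how many matches are the same bases was not counted. CTTTGAT was in 3 windows (6% against 3.21%) and CTTTGAA in 1 (2% against 4.46%). A match is a description of letters in this window and names no bound site.

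Genes that act on histone genes or histones were set beside the set. Of 22 factors of histone gene expression, such as Slbp, which binds the stem-loop of histone mRNA, 19 had rows. Their medians of means were 0.23 with Plakoglobin and 0.20 with β-catenin, with 15 and 17 of 19 above 0 (78.9% and 89.5%); over all promoters the medians were 0.05 and 0.008, and 56.6% and 51.4% of means were above 0. Of 16 listed histone variants 7 had rows outside the set, with medians of 0.19 and 0.26. H1f7, H1f8 and H1f10 are also on that list, but they belong to the set and were not counted again. Of 16 histone chaperones 13 had rows, with medians of -0.02 and 0.04. By limma 0 of these rows passed the adjusted test in either direction for any of the 3 comparisons, where 0% of all rows did, and at an unadjusted p under 0.05 there was 1, Nasp, a chaperone of H1 and of H3 with H4, which was lower with Plakoglobin (-0.58, -0.25 and -0.37); this is 2.56% of the 39 genes, against 2.14% of all rows. None had a peak on 2 arrays of an antibody, where 4.32% of all rows had one with Plakoglobin and 0.706% with β-catenin. With 39 genes a count of 0 is near these shares. The smallest unadjusted p-values for the difference between antibodies were those of Sympk, Nelfe and Srrt among the factors (0.141, 0.221 and 0.241), of Macroh2a1, H2az1 and H2aj among the variants (0.339, 0.369 and 0.528) and of Hira, Ssrp1 and Daxx among the chaperones (0.223, 0.227 and 0.248). Ssrp1, a subunit of the FACT chaperone, stood at 3.52 on β-catenin array 3 and at 0.05 and -0.07 on arrays 1 and 2. Daxx, a chaperone of the variant H3.3, stood at 1.54 on Plakoglobin array 1 and at 0.24 and 0.01 on arrays 2 and 3.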

How the data were processed

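The data are 6 NimbleGen 2-colour promoter arrays, 3 with a Plakoglobin and 3 with a β-catenin antibody, grouped by their labels. The authors deposited, per the file headers, the mean and the median log2 ratio over the probes of each promoter with their SD, and peak lists with a peak score, a false discovery rate (a q-value, at most 0.199) and a distance to each start site. The normalization of the deposited log2 ratios, the peak caller and the build of the coordinates are not stated in the sources used here. The peak score is the authors' own and served only to rank peaks within a list. Depth has no meaning for arrays, and their number limits the precision.

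Array medians before centring lay between 0.15 and 0.45 and were subtracted, since the median of all promoters is not 0 in the deposited ratios. All 26200 rows with a value (75 had none) were fitted together with limma 3.58.1 in R 4.3.3. The fit had 1 mean for each antibody, a moderated variance with a trend, and Benjamini-Hochberg adjustment over all rows. It was tested on simulated data whose spread between arrays was set below the measured one. That test therefore does not show what could be called at the measured spread. Peaks were taken at every listed start site, and start sites with a peak in common were joined. Accessions were matched to current symbols through RefSeq (GRCm38.p6), and no coordinate was converted.

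Deviations from the antibody means correlated at 0.20, 0.23 and 0.22 between Plakoglobin and β-catenin arrays of the same number and between -0.15 and -0.05 for other numbers, so the array numbers, which come from the sample titles, pair the samples by the data; a fit with the number as a block was the alternative.

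Named rows are those with peaks on at least 2 arrays of an antibody, the 4 highest and 4 lowest means of each antibody, the 4 smallest p-values in each direction of the difference, and the highest row of each class. H4c1, H4c2, H2ac4, H2ac15, H2ac7, H2ac18, H2ac22, H2bc1, H1f6, H1f7, H1f8, H1f10 and Nasp were named after their values were seen. The members, gene lists, motifs and tests were chosen with earlier results of these data known. The alternatives tried were no centring, scaling by the spread of each array, quantile normalization, the median over probes, accessions with a single row, stricter and nearer peaks, equal numbers of top peaks, and leaving out each array.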

Additional observations from a re-analysis of the deposited data

Results flagged for a closer look

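H3c3 was picked out because its 3 Plakoglobin values (-0.04, -0.12 and -0.05) were all below the array median and its 3 β-catenin values (0.14, 0.51 and 0.04) all above it, a difference of -0.30 on the log2 scale; the limma test of this difference gave an unadjusted p of 0.183 and an adjusted p of 1, and no centring moved both antibodies above 0.

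Some histone accessions have no log2 ratio analysed here and are known only because a peak list names them, so that they carry peaks follows from how they were found. Among them, Hist1h1b, Hist1h2ag, Hist1h2ao, Hist1h3d, Hist1h4j, Hist2h2be and Hist2h3b each had a listed peak on 2 of the 3 Plakoglobin arrays. Of the 25 such histone accessions 16 (64%) had peaks on at least 2 Plakoglobin arrays, against 11.4% of the 10295 accessions that are in a peak list but not in the tables of ratios. Several of the 16 are further accessions of genes already described, such as Hist1h4h, Hist1h4i and Hist1h2bp. Most of their peaks are the ones already counted at members of the set, so the 64% adds little that is separate. The nearest Plakoglobin peak lay 476 bp from the start site of Hist1h1b, 774 bp from that of Hist1h2ag, 231 bp from that of Hist1h2ao, 354 bp from that of Hist1h3d and 223 bp from that of Hist1h4j. Hist2h2be and Hist2h3b are listed with the same start position, and their nearest Plakoglobin peak lay 584 bp from it. There is no unspecific antibody to set these peaks against.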

How the results depend on the processing

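The count of histone rows called by limma stayed at 0 for Plakoglobin, β-catenin and their difference under every alternative run, the fit with the array number as a replicate block included (0, 0 and 0 calls, with adjusted p-values of 0.198, 0.278 and 0.890 at the lowest). Counting rows by an unadjusted limma p under 0.05, Plakoglobin was higher at 1 (1.52%, against 1.02% of all rows) and lower at 8 rows (12.1% against 10.8%) with the block, and higher at 9 (13.6% against 12.8%) and lower at 0 (0% against 0.00382%) without centring. Without centring every median moved up with the array medians. With Plakoglobin it was 0.39 for all histone rows, 0.38 for H1, 0.25 for H2B, 0.22 for H3, 0.95 for H4, 0.41 for Hist1, 0.10 for Hist3 and 0.41 for genes elsewhere. With β-catenin it was 0.25 for all histone rows, 0.29 for H1, 0.046 for H2A, 0.24 for H2B, 0.13 for H3, 0.24 for Hist1, 0.26 for Hist2, 0.12 for Hist3 and 0.31 for genes elsewhere. The β-catenin median of H1 was 0.14 with quantile normalization, that of Hist2 was 0.11 over accessions with a single row, and the Plakoglobin median of H4 was 0.13 with the median over probes; the cause was not tested.

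Leaving out each array in turn, the Plakoglobin medians ran from -0.079 to 0.0945 for all histone rows, from -0.21 to 0.42 for H2A, from -0.25 to -0.0075 for H3, from 0.44 to 0.77 for H4 and from -0.079 to 0.12 for Hist1, each lowest without Plakoglobin array 1. The β-catenin medians ran from -0.0095 to 0.13 for H1 and from -0.22 to -0.007 for H2A. The accessions with peaks on 2 arrays ran from 11 to 14 with Plakoglobin (11 without array 1) and from 0 to 2 with β-catenin, and the regions from 4 to 5 and from 0 to 1.

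The 20 histone accessions with Plakoglobin peaks on at least 2 arrays became 9 within 1000 bp, 9 on all 3 arrays and 0 with equal numbers of top peaks. The 8 regions became 5 at a false discovery rate of at most 0.05, 3 on all 3 arrays and 0 with equal numbers of top peaks. With β-catenin the 2 accessions became 0 within 1000 bp and 0 on all 3 arrays, and the 1 region became 0 on all 3 arrays. Fewer peaks enter each of these counts by construction. Shares of all accessions or regions are not given for the stricter false discovery rate, the top peaks or the arrays left out. Among values of single genes 34 moved by more than the spread between arrays and 575 did not, and none that was called changed sign, since none was called.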
